A study of Mus musculus with 3 samples.

Results

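The genes described here code for 48 enzymes, kinases and transporters of central carbon metabolism: glucose uptake and glycolysis, lactate handling, the pyruvate dehydrogenase step, the pentose phosphate pathway, the TCA cycle and the cytosolic enzymes that use citrate, isocitrate and malate. They were taken from a list of names and matched to GENCODE M21, so 48 of 55536 annotated genes, or of 22028 protein-coding genes, were members. Their RNA was measured by sequencing chromatin-bound total RNA, with ribosomal RNA depleted, in 3 libraries of bone-marrow-derived macrophages of the mouse strain C57BL/6J. All 3 came from 1 condition: a first exposure to 100 ng/ml Lipid A (the part of lipopolysaccharide that TLR4 recognises) for 12 h, a washout of 12 h, and a second exposure at 100 ng/ml for 25 min. With no untreated or singly stimulated group analysed here, the values below are levels and comparisons between genes within these libraries, and none of them is a response to Lipid A. The labels give 3 biological replicates under 1 donor identifier without saying whether they came from separate animals, so each SD measures the spread between these libraries only. The starting RNA was 1 µg, 250 ng and 500 ng.

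Glycolysis breaks glucose down to pyruvate in the cytosol, the pentose phosphate pathway branches off after the first phosphorylation to make NADPH and ribose, and pyruvate that enters mitochondria is oxidised in the TCA cycle. Macrophages that sense lipopolysaccharide are known for high glycolytic flux, lactate release, NADPH use by the respiratory burst and export of citrate. Chromatin-associated RNA holds transcripts still being made or processed, so a level in this fraction reflects RNA at the gene and not the pool of cytosolic mRNA from which enzymes are translated.

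In this fraction the members did not follow the pathway's order. Hk3, a hexokinase found mainly in blood cells, was far above the rest, pyruvate kinase (Pkm) followed, and several middle steps of glycolysis lay an order of magnitude or more below them. Ldhb, Aldoc and Slc16a1 were near 0. The macrophage identity of the cells was seen in 8 of 8 macrophage markers above 1 TPM in every library (TPM is a length-scaled abundance with 1 total for all libraries), with a summed level between 936 and 1016 TPM. No marker of neutrophils, T cells, B cells, erythroid cells, fibroblasts or endothelium reached 1 TPM in every library, and the highest sum of any of these lists in a library was 1.29 TPM.

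The sequences that carry the clearest choice between transcripts are the pair of mutually exclusive exons of Pkm, since which of them is spliced in decides whether the M1 or the M2 form of pyruvate kinase is made. The upstream exon, in transcript Pkm-202, codes for the M1 form and lies at chr9:59675029-59675195 on the plus strand of GRCm38 (the assembly that mm10 names). The downstream exon, in transcript Pkm-201, codes for the M2 form and lies at chr9:59675568-59675734. Each is exon 9 of its transcript and is 167 bases long. They are shown 5′ to 3′ from the GENCODE M21 transcripts, with capitals at the 64 positions where they differ. The other 103 positions, 61.7%, carry the same base.
Pkm-202: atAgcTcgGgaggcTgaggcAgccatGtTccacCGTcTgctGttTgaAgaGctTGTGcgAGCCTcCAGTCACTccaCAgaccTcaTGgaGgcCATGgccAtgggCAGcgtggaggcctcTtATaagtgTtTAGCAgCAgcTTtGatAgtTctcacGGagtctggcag
Pkm-201: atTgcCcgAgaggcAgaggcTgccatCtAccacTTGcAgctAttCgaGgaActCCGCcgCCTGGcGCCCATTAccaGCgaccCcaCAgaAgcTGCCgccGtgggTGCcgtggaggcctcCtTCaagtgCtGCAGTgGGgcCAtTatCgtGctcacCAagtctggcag

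The second set is the 250 bases before the annotated start of Hk3, the highest member, and of Hk2, its inducible relative at a far lower level, from RefSeq's table for GRCm38.p6. The Hk3 stretch is chr13:55021386-55021635 and the Hk2 stretch chr6:82774455-82774704, each read on the minus strand. Capitals mark ACGTG, the core of the hypoxia response element, and GAGGAA, a core bound by the myeloid factor PU.1, on either strand (CACGT and TTCCTC are their reverse complements).
Hk3: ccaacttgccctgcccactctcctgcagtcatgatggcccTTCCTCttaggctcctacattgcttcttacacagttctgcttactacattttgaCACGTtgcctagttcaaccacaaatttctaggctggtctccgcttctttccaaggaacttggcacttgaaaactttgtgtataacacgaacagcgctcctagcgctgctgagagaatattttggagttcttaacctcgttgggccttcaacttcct
Hk2: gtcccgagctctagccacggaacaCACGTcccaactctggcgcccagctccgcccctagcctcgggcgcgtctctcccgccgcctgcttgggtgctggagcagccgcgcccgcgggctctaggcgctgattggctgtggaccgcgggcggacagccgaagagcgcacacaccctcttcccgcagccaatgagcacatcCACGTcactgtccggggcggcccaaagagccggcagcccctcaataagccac
The Hk3 stretch held 1 match to ACGTG and 1 to GAGGAA, and the Hk2 stretch held 2 and 0.

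Expected counts over annotated genes came to 13502401, 17848798 and 17824176 in replicates 1, 2 and 3. The 48 members took 28224, 37122 and 36949 of them, a share of 0.209%, 0.208% and 0.207%. The total behind this share includes the ribosomal RNA locus, which took 11.1%, 31.8% and 24.8% of the counts. Of the TPM of protein-coding genes alone, the members took 0.406%, 0.504% and 0.473%, lowest in replicate 1. Of the members, 45 reached 1 TPM in every library, against 44.0% of all protein-coding genes. That floor was passed with at least 24 expected counts in every library. A mean of 10 TPM or more was seen for 28 members and of 100 TPM or more for 2. No share over all genes is given here for these bounds. The median of the member means was 13.1 TPM, and the median of the 9689 protein-coding genes that passed the same floor was 11.0 TPM.

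**Figure D1:**
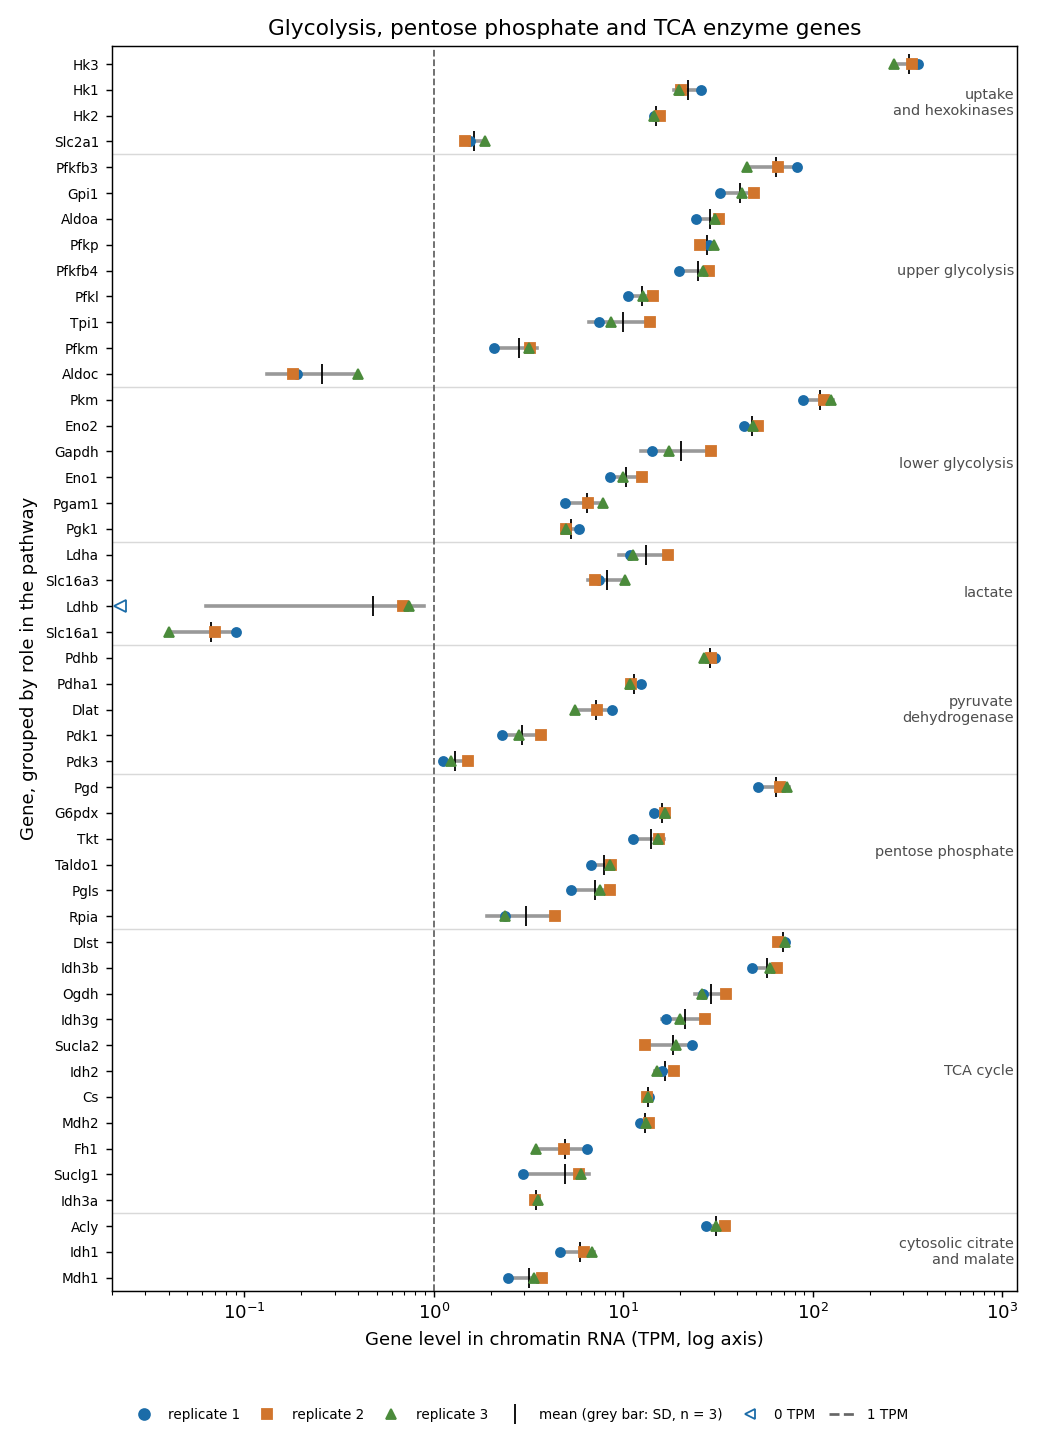
TPM of each of the 48 genes on a log axis, grouped by role, with 1 point per library, the mean as a tick and the SD (n = 3) as a grey bar. Hk3 lies alone at 267 to 357 TPM, and Aldoc, Ldhb and Slc16a1 lie left of the dashed line at 1 TPM.

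Among the member genes of glucose uptake and phosphorylation, the RNA of the hexokinase Hk3 was by far the highest. Hk3 (ENSMUSG00000025877.14, chr13:55005985-55021385, minus strand) measured 357, 335 and 267 TPM in replicates 1, 2 and 3 and ranked 69 among protein-coding genes by mean. It held 29.5%, 25.2% and 22.3% of the summed TPM of all members. Hk1, the widely expressed hexokinase that docks on mitochondria, measured 25.7, 20.2 and 19.7 TPM. Hk2, the insulin- and hypoxia-inducible form, measured 14.6, 15.7 and 14.5 TPM. Hk3 thus made up 89.9%, 90.3% and 88.7% of the TPM of the 3 hexokinases, and the lowest Hk3 library was above the highest of either other gene. Slc2a1, the basal glucose transporter GLUT1, measured 1.55, 1.46 and 1.86 TPM, and 4.74, 3.92 and 4.92 TPM in a second quantification of the same libraries described further on. Hk3 shares 34 exon bases with Unc5a on the opposite strand, which had 983, 1250 and 995 counts against 9385, 11985 and 10187 for Hk3. The strand setting of the counting is not given in the sources used here, so reads in a shared stretch cannot be assigned to one strand.

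Among the enzymes of upper glycolysis the highest was a regulator and not a step of the chain. Pfkfb3, which makes the phosphofructokinase activator fructose 2,6-bisphosphate, measured 82.6, 65.4 and 44.7 TPM. Pfkfb4, its relative with both kinase and phosphatase activity, measured 19.6, 28.2 and 26.4 TPM. Pfkfb3 was highest in replicate 1, where Pfkfb4 was lowest, and their ranges did not overlap. Gpi1, which turns glucose 6-phosphate into fructose 6-phosphate, averaged 41.3 ± 8.35 TPM (SD, n = 3), and it shares 741 exon bases with the opposite-strand noncoding gene Gm26762.

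The 3 phosphofructokinases, which commit sugar to glycolysis, were ordered platelet type, liver type, muscle type. Pfkp measured 28.2, 25.3 and 29.9 TPM. Pfkl measured 10.6, 14.3 and 12.7 TPM. Pfkm measured 2.08, 3.23 and 3.19 TPM. No library of one overlapped a library of another in these gene totals. In the first transcript table, described further on, protein-coding transcripts made up 9.91% ± 5.87 of Pfkp TPM and 31.0% ± 1.04 of Pfkl TPM. For Pfkm they made up 100%. The order is thus one of all transcript classes together, and not of protein-coding transcripts alone. Pfkp shares 748 exon bases with the opposite-strand gene Pitrm1, and Pfkm shares 18 with Senp1 on the opposite strand and 341 with Gm26513 on the same strand, which had 40.4, 19.1 and 25.8 counts against 74, 136 and 143 for Pfkm. Aldolase RNA was nearly all Aldoa, at 24.2, 31.9 and 30.3 TPM, while Aldoc, the brain form, had 3, 4 and 9 counts (0.19, 0.18 and 0.40 TPM). Tpi1, triosephosphate isomerase, averaged 9.94 ± 3.39 TPM. The name Aldoa is carried by a pair of annotated genes; the other one had 1, 2 and 2 counts and was not used.

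Lower glycolysis held the second highest member and some of the lower ones. Pkm, pyruvate kinase (ENSMUSG00000032294.17, chr9:59656368-59679375, plus strand), measured 88.4, 115 and 125 TPM, lowest in replicate 1. Eno2, the enolase known as the neuronal form, measured 43.2, 51.4 and 48.5 TPM. Eno1, the ubiquitous enolase, measured 8.54, 12.5 and 9.92 TPM. Every library of Eno2 was thus above every library of Eno1. Gapdh, often taken as a reference gene, measured 14.2, 28.9 and 17.4 TPM, a range that spans from below Hk2 to above Hk1. It shares 68 exon bases with the opposite-strand gene Iffo1, which had 1159, 2107 and 1749 counts against 267, 522 and 288 for Gapdh. Pgam1, phosphoglycerate mutase, averaged 6.40 ± 1.42 TPM. Pgk1, phosphoglycerate kinase and the first ATP-yielding step, had the lowest mean in the group, with a range overlapping that of Pgam1, at 5.86, 4.99 and 4.97 TPM.

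Of the lactate genes among the members, Ldha and Slc16a3 passed the floor and Ldhb and Slc16a1 did not. Ldha, the lactate dehydrogenase subunit that favours lactate formation, measured 10.8, 17.3 and 11.2 TPM. Ldhb, the heart subunit, was listed at 0 in replicate 1 and at 0.69 and 0.74 TPM in replicates 2 and 3, from 0, 3 and 7 counts. A count of 0 allows up to 3 counts, or 0.222 CPM (counts scaled to a common library total) in replicate 1. Slc16a3, the lactate exporter MCT4, measured 7.44, 7.05 and 10.2 TPM. Slc16a1, the transporter MCT1, had 5, 5 and 3 counts (0.09, 0.07 and 0.04 TPM). Slc16a7, the transporter MCT2 and no member, measured 12.6, 12.8 and 18.3 TPM and was above Slc16a3 in every library. Ldhb and Slc16a1 were each within a few counts of the floor, so their levels are known only to be far below those of Ldha and Slc16a3.

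Of the pyruvate dehydrogenase genes, those of the E1 enzyme exceeded those of the kinases that switch it off. Pdhb, the E1 beta subunit, measured 30.3, 29.2 and 26.6 TPM, and Pdha1, the E1 alpha subunit, averaged 11.4 ± 0.797 TPM. Dlat, the E2 core, averaged 7.18 ± 1.57 TPM. The kinase genes Pdk1 and Pdk3 were lower: Pdk1, a hypoxia-inducible form, measured 2.29, 3.67 and 2.81 TPM and Pdk3 measured 1.12, 1.51 and 1.24 TPM. Pdha1 shares 603 exon bases with the opposite-strand gene Map3k15.

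In the pentose phosphate pathway the 2 NADPH-forming dehydrogenases had the highest means, with Pgd apart from the rest and G6pdx overlapping Tkt. Pgd, 6-phosphogluconate dehydrogenase, measured 51.2, 66.9 and 73.1 TPM. G6pdx, which catalyses the entry step, averaged 15.9 ± 1.23 TPM, and it shares 418 exon bases with the opposite-strand gene Ikbkg. Pgls, the lactonase between them, averaged 7.10 ± 1.67 TPM, and it shares 776 exon bases with Fam129c on the same strand. In the non-oxidative branch Tkt (transketolase) averaged 14.0 ± 2.36 TPM and Taldo1 (transaldolase) 7.94 ± 1.02 TPM. Rpia, ribose 5-phosphate isomerase, was lowest in the group at 2.39, 4.37 and 2.39 TPM, its replicate 2 standing above the other libraries.

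The TCA cycle genes spanned from 69.3 TPM down to 3.46 TPM in mean, and subunits of 1 complex did not share a level. Dlst, the E2 subunit of 2-oxoglutarate dehydrogenase, measured 71.6, 65.1 and 71.1 TPM, against 29.0 ± 4.99 TPM for Ogdh, the E1 subunit of the same complex. These are gene totals: protein-coding transcripts made up 18.7% ± 3.02 of Dlst TPM and 72.5% ± 10.8 of Ogdh TPM in the first transcript table. The 3 subunits of NAD-dependent isocitrate dehydrogenase differed widely: Idh3b averaged 57.2 ± 8.44 TPM, Idh3g 21.2 ± 5.28 TPM, and the catalytic Idh3a measured 3.40, 3.43 and 3.56 TPM. Cs, citrate synthase, was the steadiest member relative to its level at 13.7, 13.4 and 13.6 TPM. Sucla2, the ATP-forming beta subunit of succinyl-CoA ligase, measured 23.1, 13.0 and 18.9 TPM, and Suclg1, the alpha subunit it pairs with, 2.96, 5.85 and 5.96 TPM. Fh1, fumarase, averaged 4.93 ± 1.49 TPM.

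The mitochondrial NADP-dependent isocitrate dehydrogenase Idh2 and malate dehydrogenase Mdh2 were above their cytosolic counterparts in TPM in every library. Idh2, in mitochondria, measured 15.9, 18.5 and 15.0 TPM and Idh1, in the cytosol, 4.65, 6.24 and 6.81 TPM. For Idh1 and Idh2 the difference lay in the scaling for length in replicate 3, where each had 242 counts. Mdh2, in mitochondria, measured 12.2, 13.7 and 13.1 TPM and Mdh1, in the cytosol, 2.46, 3.74 and 3.39 TPM. Mdh1 shares 52 exon bases with the opposite-strand gene Wdpcp. Both differences are of gene totals over all transcript classes. Among protein-coding transcripts of the first transcript table, described further on, Idh2-201 averaged 5.65 ± 0.437 TPM and Idh1-201 5.84 ± 1.10 TPM. In the same table Mdh2-201 averaged 2.23 ± 0.471 TPM and Mdh1-201 2.04 ± 0.408 TPM. Acly, ATP citrate lyase, which splits exported citrate into acetyl-CoA, was the highest of the cytosolic group at 27.2, 34.3 and 30.9 TPM.

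On a log2(TPM + 1) scale the median over all members was 3.78 ± 0.11 (SD over 3 libraries), beside 3.56 ± 0.03 for the protein-coding genes that passed the floor. By role, the medians of the levels ran from 4.62 ± 0.22 in upper glycolysis, 4.25 ± 0.10 in uptake and hexokinases, 3.99 ± 0.10 in the TCA cycle and 3.91 ± 0.38 in lower glycolysis to 3.52 ± 0.20 in the pentose phosphate pathway, 3.01 ± 0.28 in the pyruvate dehydrogenase group, 2.77 ± 0.24 in the cytosolic citrate and malate group and 1.87 ± 0.27 in the lactate group. This order changed with the settings: without the members under the floor the lactate median was 3.49, and in the second quantification the medians of the pyruvate dehydrogenase group (4.19) and the pentose phosphate pathway (4.21) were above that of lower glycolysis (4.07). When all 48 genes were put in the order of their means, 42 of the 47 neighbouring pairs had overlapping ranges over the libraries. The 5 that did not overlap were Hk3 above Pkm, Pkm above Dlst, Pfkm above Slc2a1, Pdk3 above Ldhb and Aldoc above Slc16a1. The last of these rests on 3, 4 and 9 counts for Aldoc against 5, 5 and 3 for Slc16a1. In replicates 1 and 2 it thus lay in the scaling for length. Between Dlst and Pfkm the order is therefore a gradient in which no gene is set apart from its neighbour.

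The design allows genes that do the same step to be compared within each library. In all, 15 pairs of isozymes, subunits or compartment counterparts were compared by the difference of log2(TPM + 1). In all 15 the direction was the same in 3 of 3 libraries and the ranges of the TPM values did not overlap. No share over other pairs of genes is given here, so this count does not set these pairs apart. With 3 libraries the exact two-sided sign-flip permutation test cannot go below p = 0.25, and each pair gave p = 0.25, also after Benjamini-Hochberg adjustment over the 15 pairs. No difference could therefore pass a threshold of 0.05, and the sizes are given as measured.

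Hk3 exceeded Hk1 by 3.81 ± 0.16 and Hk2 by 4.32 ± 0.20 on the log2(TPM + 1) scale, which are TPM ratios of 13.6 to 16.6 and of 18.5 to 24.5 over the libraries. Hk1 exceeded Hk2 by only 0.51 ± 0.23. That small difference turned to -0.17 when CPM, not scaled for length, was used. Pfkp exceeded Pfkm by 2.92 ± 0.31, Pfkl exceeded Pfkm by 1.82 ± 0.10, and Pfkl was below Pfkp with a difference of -1.10 ± 0.29. Eno1 was below Eno2 with a difference of -2.12 ± 0.14, a TPM ratio of 0.198 to 0.243. Pfkfb3 exceeded Pfkfb4 by 1.31 ± 0.65, with ratios that ran from 4.21 in replicate 1 to 1.69 in replicate 3.

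Aldoa exceeded Aldoc by 4.56 ± 0.21, Ldha exceeded Ldhb by 3.27 ± 0.40 and Slc16a3 exceeded Slc16a1 by 3.10 ± 0.29. The added 1 TPM holds down these 3 differences, since the lower partner was under 1 TPM in every library. Mdh2 exceeded Mdh1 by 1.75 ± 0.16 and Idh1 was below Idh2 with a difference of -1.35 ± 0.28, which shrank to -0.33 ± 0.30 in CPM. Pdk3 was below Pdk1 with a difference of -0.77 ± 0.13. The widest spread was that of Suclg1 against Sucla2, with a difference of -1.72 ± 0.81 and TPM ratios of 0.128, 0.452 and 0.316. That difference was -0.94 in the second quantification, where Suclg1 averaged 10.3 ± 0.617 TPM, and -1.05 in CPM.

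**Figure D2:**
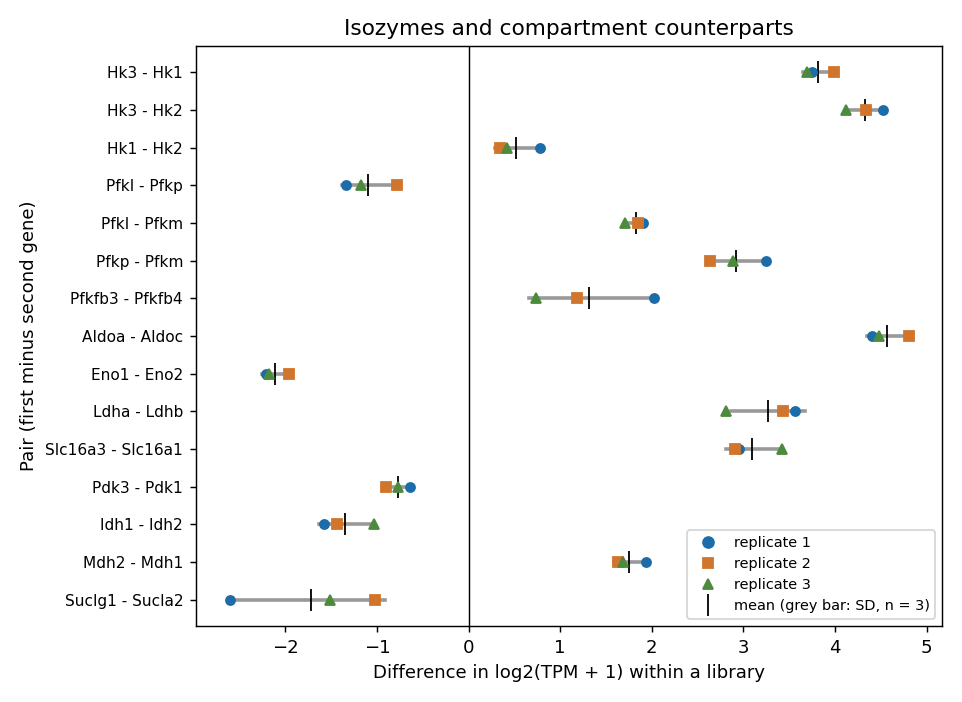
Difference in log2(TPM + 1) between the genes of each of the 15 pairs, with 1 point per library, the mean as a tick and the SD (n = 3) as a grey bar. No pair has points on both sides of 0, and the Pfkfb3 and Pfkfb4 pair and the Suclg1 and Sucla2 pair have the widest bars.

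The pair of exons printed above was read out through the transcripts that hold them. Pkm-201, with the M2 exon, measured 27.8, 36.3 and 47.1 TPM in the first transcript table. Pkm-202, with the M1 exon, measured 12.7, 10.7 and 21.4 TPM. Of the TPM of both, Pkm-201 took 68.8%, 77.3% and 68.7%, or 71.6% ± 4.93 (SD, n = 3). In the second transcript table, made from the same libraries by another quantification, the share was 68.4%, 72.1% and 67.0%, or 69.1% ± 2.64. The M2 transcript was thus the higher of the pair in every library and in both tables.

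Pkm-205, a transcript annotated with a retained intron that ends before either exon, reached 30.2, 44.8 and 41.0 TPM and was the highest Pkm transcript of the first table by mean. The second table put Pkm-208, a protein-coding transcript of 3 exons, on top with a mean of 29.6 TPM, against 1.04 TPM in the first. Pkm-205 averaged 25.1 TPM there, below Pkm-201 at 28.4 TPM. Of the 11 annotated Pkm transcripts, Pkm-203 is the remaining one with an exon of the pair; it holds the M1 exon together with intron sequence and measured 0.87, 4.19 and 1.39 TPM. Gm49759, a gene of the annotation's class TEC on the same strand, spans both exons and shares 767 exon bases with Pkm. It held 1354, 2120 and 1914 counts beside 2028, 3112 and 3911 for Pkm, and how reads of the exons were divided between both genes was not tested.

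**Figure D3:**
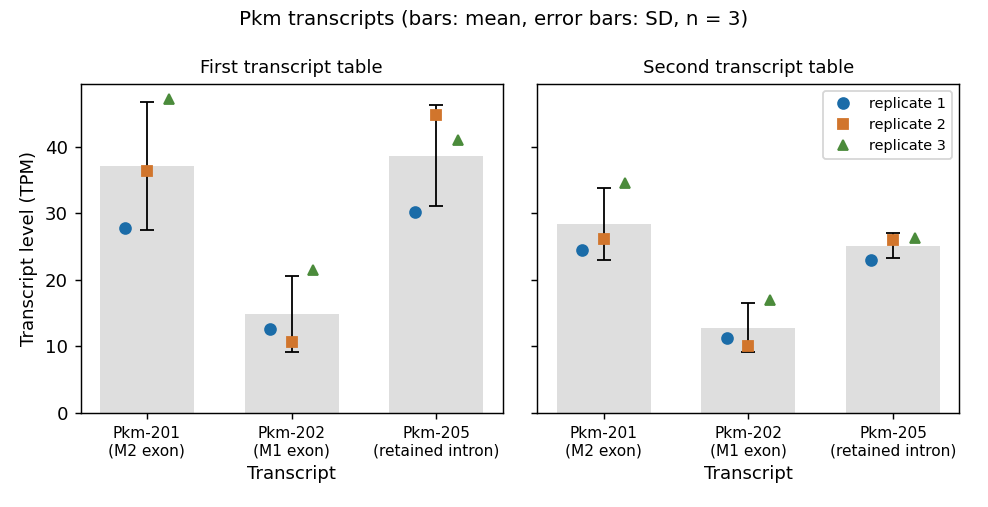
TPM of the Pkm transcripts with the M2 exon, the M1 exon and a retained intron in the first (left) and second (right) transcript table. Points are libraries, bars the mean and error bars the SD (n = 3); Pkm-201 is above Pkm-202 in each library on both sides.

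The 48 genes have 363 annotated transcripts. The counts of highest transcripts that follow have no share over all genes beside them. In the first table the highest transcript was annotated protein coding for 30 of the 45 members that passed the floor, retained intron for 12 and another class for 3. Both tables named the same highest transcript for 25 of the 45, of which 19 were protein coding. The other 6 were the retained-intron transcripts Pfkfb3-211, Eno2-211, Pgls-202 and Sucla2-205, the processed transcript Slc16a3-206 and Mdh2-203, a target of nonsense-mediated decay. Idh3b-201, a protein-coding transcript, carried 81.6% of its gene's TPM in the first table and 80.7% in the second. For Hk1 both tables named Hk1-212, a protein-coding transcript, at 8.23 and 7.42 TPM in mean.

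Hk3 was split over several transcripts and the tables disagreed on the highest. The first table put Hk3-208, protein coding, on top with 106, 101 and 96.8 TPM. The second put Hk3-207, a processed transcript of 4 exons, on top with 264, 171 and 184 TPM, against 25.5, 13.5 and 13.1 TPM in the first. Protein-coding transcripts made up 52.8% ± 4.20 of Hk3 TPM in the first table and 39.2% ± 4.82 in the second. No Hk3 transcript is annotated as retained intron.

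Transcripts annotated retained intron exist for 37 members. The share of a gene's TPM in such transcripts was taken for genes that have both retained-intron and protein-coding transcripts and reach 5 TPM in every library, which left 30 members among 4730 genes. The median share over these members was 52.8% ± 3.16 (SD over 3 libraries), beside 46.0% ± 2.42 over all 4730 genes. A share above 50% in every library was seen for 14 of the 30 members, against 33.4% of all genes measured in the same way. In the second transcript table the medians were 51.9% ± 1.88 and 44.8% ± 1.37, and 13 of 30 members were above 50% in every library, against 34.9% of genes.

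The members differed widely in this share. Pfkp was highest with 94.3%, 92.6% and 83.4%, then Gpi1 with 84.6%, 91.7% and 86.4%, and Idh3g with 75.9%, 80.9% and 79.6%. At the other end were Hk1 with 10.5%, 18.0% and 16.0% and Idh3b with 16.6%, 18.0% and 17.8%. The subunits Idh3b and Idh3g of 1 enzyme thus lay at opposite ends. Above 50% in every library and in both tables were 9 members: Gpi1, Pfkp, Pfkfb3, Pdhb, Pgd, Tkt, Idh2, Idh3g and Sucla2. Their highest transcripts in the first table were the retained-intron transcripts Gpi1-203, Pfkp-212, Pfkfb3-211, Tkt-206, Idh3g-208 and Sucla2-205 and the protein-coding transcripts Pdhb-201, Pgd-201 and Idh2-201. Above 50% in the first table alone were Pfkfb4, Eno2, Dlat, Pgls and Mdh2, led by Pfkfb4-208, Eno2-211, Dlat-201, Pgls-202 and Mdh2-203. Gapdh, Eno1, Taldo1 and Dlst were above 50% in every library in the second table alone.

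Among the members that reached 5 TPM in every library, Taldo1 and Gapdh moved most between tables. Their shares went from 39.9% ± 11.0 to 76.0% ± 5.36 and from 49.4% ± 10.3 to 75.2% ± 3.20. By counts in place of TPM, the median share was 33.6% ± 6.14 over the members and 29.0% ± 2.26 over all 4730 genes in the first table. Transcripts still being spliced also give reads in introns that lie in these annotated transcripts, and what part they have in the share was not tested.

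**Figure D4:**
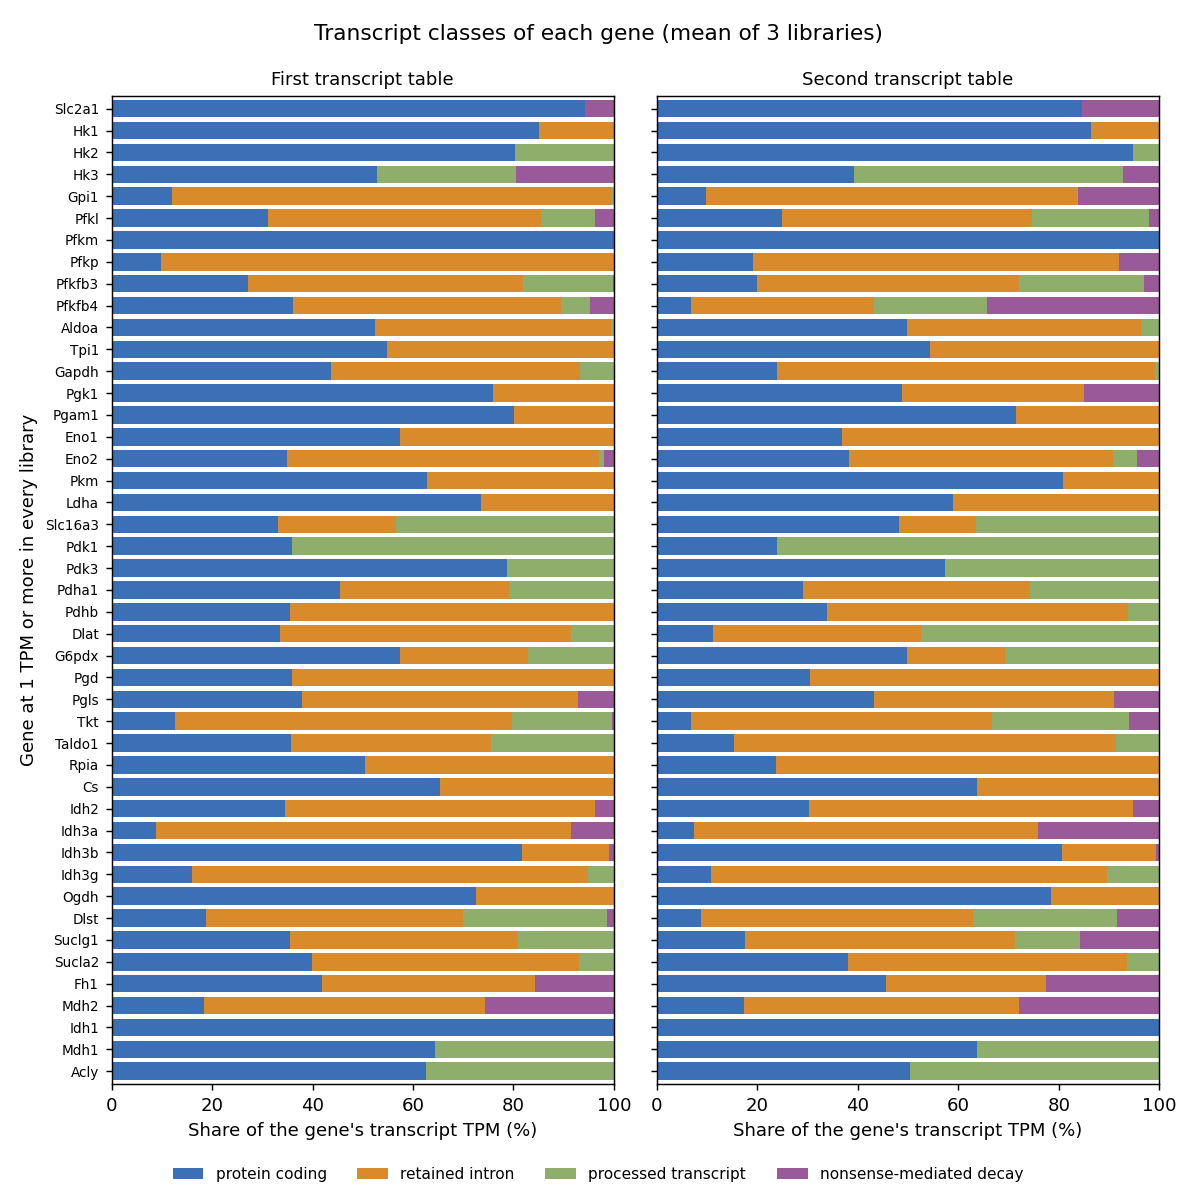
Share of each gene's transcript TPM by annotated transcript class, mean of 3 libraries, for the 45 genes at 1 TPM or more in every library, in the first (left) and second (right) transcript table. Orange bars (retained intron) run from none, as in Hk3, to 90.1% in Pfkp, and those of Gapdh and Taldo1 are longer on the right.

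The first and second quantification agreed on the order of isozymes but not on the levels. Summed per gene, the second was above the first in every library for 34 of the 45 members that passed the floor, against 66.5% of all protein-coding genes that passed it. Of the 45, 19 had a mean more than 1.5 times as high in the second. The share of all genes beyond that bound is not given here, so this count does not set the members apart. Hk3 averaged 591 ± 143 TPM there and Dlat 20.1 ± 2.60 TPM, against 320 ± 47.0 and 7.18 ± 1.57 in the first. Cs, at 13.5 ± 1.52 TPM in the second, hardly differed from 13.5 ± 0.168 in the first.

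The biological coefficient of variation estimated by edgeR, a measure of the spread beyond counting error, had a median of 0.193 over the 45 members that passed the filter on low counts and of 0.203 over all 14193 genes. For protein-coding genes alone the median was 0.192, close to that of the members. Rpia (0.266), Gapdh (0.244) and Suclg1 (0.235) were the most variable, and Ogdh (0.166) was the least. The median range over the libraries in log2 CPM, with libraries scaled by the TMM method, was 0.46 for the members and 0.41 for protein-coding genes. A range above 1 on that scale was found for 1 member, Rpia at 1.03, against 6.42% of protein-coding genes.

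The members were not evenly placed among the libraries. On the same scale 32 of 45 were lowest in replicate 1, against 42.6% of protein-coding genes, and 3 (Hk1, Pfkfb3 and Pgk1) were highest there, against 34.1%. In replicate 2, 24 were highest, against 35.4%, and 6 lowest, against 34.8%. In replicate 3, 18 were highest, against 30.5%, and 7 lowest, against 22.6%. Pfkfb3 went the other way, with deviations from its own mean of 0.35 in replicate 1, 0.04 in replicate 2 and -0.39 in replicate 3. On the log2(TPM + 1) scale 28 members were lowest in replicate 1 against 34.1% of genes, and 11 were highest there against 41.6%. Replicate 1 had the most starting RNA, the fewest counts and the smallest share of the ribosomal RNA locus, and the part of these in the order was not tested.

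**Figure D5:**
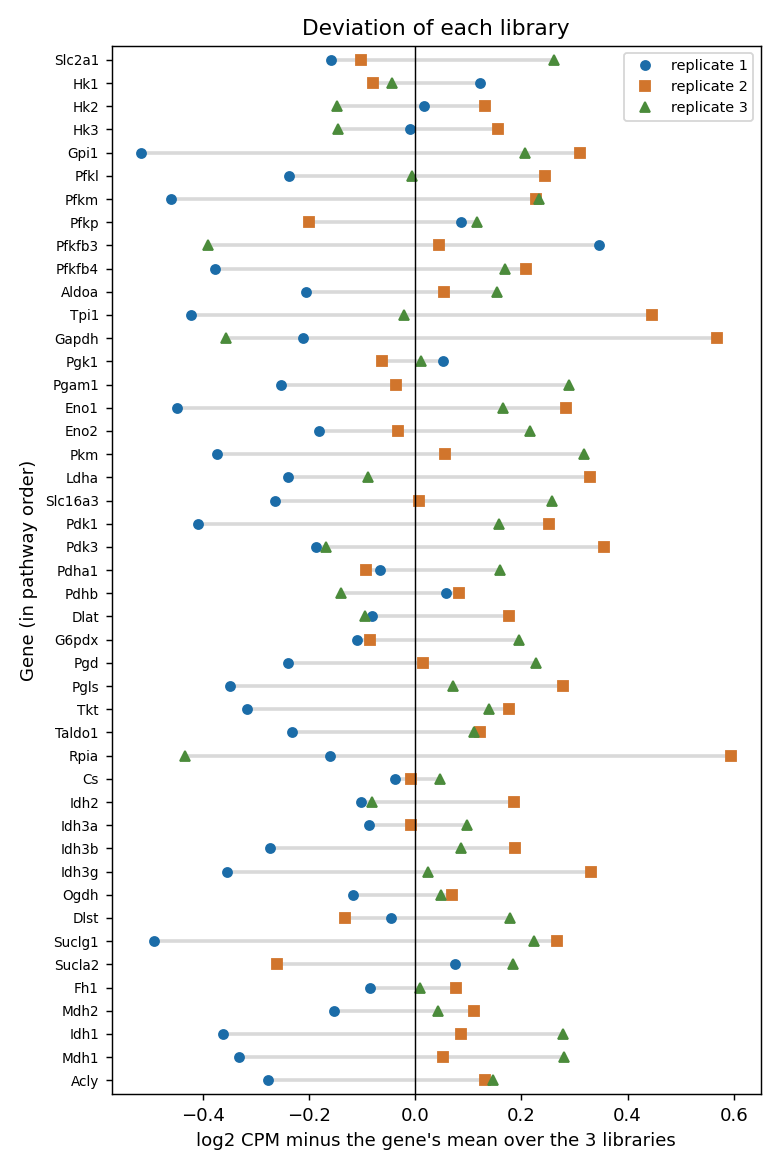
log2 CPM of each of the 45 genes minus its own mean over the 3 libraries. Replicate 1 is the leftmost point for 32 genes, and Rpia has the widest range, 1.03.

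The windows of RefSeq's promoter table, which run from 250 bases before to 50 after a gene's start, were found for 47 of the 48 members (Idh3a has none). ACGTG, on either strand, was in a window of 22 members, or 46.8%, against 30.1% of the 7761 genes with a window that passed the floor of 1 TPM and 19.6% of all 32851 windows. It was found for 15 of 23 members of uptake, glycolysis and lactate handling, all 4 of the uptake and hexokinase group among them, for 2 of 3 in the cytosolic citrate and malate group, for 2 of 5 in the pyruvate dehydrogenase group, for 1 of 6 in the pentose phosphate pathway and for 2 of 10 in the TCA cycle. A gene with several starts has more windows: 12 members do, and 8 of these held the motif. CACGTG, the E-box that contains ACGTG, was found for 5 members (10.6%) against 12.4% of those genes, and GAGGAA for 12 (25.5%) against 30.8%. Matches are given as a description of these windows and not as binding sites.

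Of 55 further genes of these pathways on a second list, 54 names matched the annotation and 37 reached 1 TPM in every library. Among the highest were Sdha, the flavoprotein of succinate dehydrogenase, at 55.3 ± 3.92 TPM, Slc25a10, the dicarboxylate carrier, at 45.8 ± 12.8 TPM, Slc2a6, a glucose transporter family member, at 37.8 ± 8.63 TPM and Mpc1, a subunit of the mitochondrial pyruvate carrier, at 25.8 ± 3.44 TPM. Slc2a6 was thus above Slc2a1 in every library. The 17 that did not reach the floor include the gluconeogenic Fbp1, listed at 0 in every library.

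Reads of members with close copies can be divided between the copies. Of 15 annotated copies and antisense genes named after members, 10 had no count and none had a mean of 1 TPM. Eno1b had 9.89, 7.34 and 20.6 counts beside 134, 254 and 245 for Eno1, and Pgk1-rs7 had 28.6 counts in replicate 3 and none in the others, beside 117 for Pgk1 there. Exon bases shared with another annotated gene occur in 16 members, in 13 of them with a gene on the opposite strand.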

How the data were processed

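The tables deposited for a library were 1 for genes and 2 for transcripts. Expected counts and TPM fill the table of genes and the first one of transcripts, in columns that carry RSEM's names per the file headers. Estimated counts and TPM fill the second one of transcripts, with kallisto's column names per the file headers. The deposited notes name mm10 and GENCODE M21. Which aligner, versions and strand setting were used is not given in the sources used here. The 55536 annotated genes were used. Other rows held 1.75%, 0.396% and 0.239% of the deposited expected counts in replicates 1, 2 and 3 and were left out.

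Members, lists and tests were chosen with earlier results of these data known. Expected counts were rounded, filtered (filterByExpr), TMM-scaled and fitted with edgeR 4.0.16 without covariates; DESeq2 1.42.0 was an alternative. The estimate was tested on simulated counts. Levels are log2(TPM + 1) or TPM. A gene passed the floor at 1 TPM in every library. Levels are given per library for isozyme pairs, for the highest and lowest member of each role and for members under the floor, with other genes as mean ± SD. SDs cover the 3 libraries, and floors of 3 counts cover counting error only. Python 3.11.15 and scipy 1.17.1 did the rest. Values of some genes on the second list are not reported here.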

Additional observations from a re-analysis of the deposited data

How the results depend on the processing

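No paired analysis was possible because all libraries belong to 1 group, so replicate numbers pair no libraries across groups. The number of members at the floor was 33 at 5 TPM and 45 to 46 under the other alternatives. The median log2(TPM + 1) over members, 3.78, was 4.28 in the second quantification and 5.59 with TPM rescaled over protein-coding genes, which takes noncoding RNA out of the total. By more than 1 SD over the libraries, 32 levels were higher in the second quantification. All 48 were higher under the rescaling, which raises every protein-coding gene of a library by a common factor, so their direction was fixed in advance. The mean difference kept its sign in 14 of the 15 pairs under every alternative; Hk1 minus Hk2, 0.51, was -0.17 with TMM-scaled CPM, not per length, 0.23 in the second quantification and 0.79 with posterior mean TPM. In CPM, Idh1 minus Idh2 was -0.33, with no difference in counts in replicate 3, Pfkl minus Pfkp -1.94 and Pdk3 minus Pdk1 -1.69. With a pseudocount of 0.1, Ldha minus Ldhb was 4.99 and Slc16a3 minus Slc16a1 5.63. The median retained-intron share, 52.8%, was 33.6% by the counts of the first transcript table and 36.3% by those of the second; the cause was not tested. The count of members highest in replicate 1, 3 against 34.1% of genes, was 11 against 41.6% with log2(TPM + 1). It was 5 against 35.0% less the trend with effective length. With log2(TPM + 1), 10 members in place of 18 were highest in replicate 3, where the share of genes was 19.9% in place of 30.5%. Lowest there were 11 members in place of 7, with a share of genes of 34.7% in place of 22.6%. The cause of these changes was not tested. The median coefficient of variation ran from 0.155 without replicate 1 to 0.236 without replicate 3. Depth limits Aldoc, Ldhb and Slc16a1, each with under 10 counts a library.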
